A study of Homo sapiens and Homo sapiens
Mus musculus and Mus musculus with 200 samples.

Results

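The late response of chromatin to loss of TWIST1 was measured as the change in H3K27ac between 3 and 24 h of dTAGV-1 (500 nM) in human cranial neural crest cells derived from the H9 embryonic stem cell line. The comparison took 4 of the 200 samples of the series, replicates 1 and 2 of the line TWIST1FV at 3 h and at 24 h. In TWIST1FV the TWIST1 gene carries a tag through which dTAGV-1, a small molecule, sends the protein for degradation, and all its libraries come from 1 clone, c64. The control was WT, the unedited line, which was given the same agent for the same times, in 4 libraries. Libraries at 0 h of both lines, 2 each, entered the fits to share the estimate of the spread and gave the change over the first 3 h, so that 12 H3K27ac libraries were used in all. The labels do not say whether replicates were separate cultures, so p-values measure the spread between these libraries, which may be technical. H3K27ac was counted over 213151 merged ATAC-seq peaks, which are stretches of open chromatin, and 123361 of them had enough counts to be tested in TWIST1FV. Members of the late response were the peaks whose change from 3 to 24 h passed a false discovery rate (FDR) of 0.05. These were 742 falling peaks, 0.601% of those tested, and 357 rising peaks, 0.289%.

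H3K27ac is acetylation of lysine on histone H3 and marks active enhancers and promoters. It is laid down by the co-activators p300 and CBP and removed by histone deacetylases, so its level can change after the factor that recruited them has left. TWIST1 is a basic helix-loop-helix (bHLH) factor of the cranial neural crest, a migratory population of the embryo that forms bone, cartilage and connective tissue of the face. It binds E-boxes, often next to a homeodomain factor, and human mutations of TWIST1 cause craniosynostosis, the early fusion of skull bones.

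The sequences at the centres of 7 late peaks are printed as examples. They were chosen by size of change or by motif and need not be typical of the late peaks. They are, among peaks above the median level, the 3 falling peaks with the largest change and 2 of the 3 such rising peaks, then the falling peak with an E-box and a homeodomain site at a spacing described below, and the peak in the TWIST1 locus with the largest rise. Each holds the peak's central base and 100 bases on either side, on the plus strand of hg38, read from the genome. Capitals mark the E-box CAGATG, which reads CATCTG on the other strand, the E-boxes CATATG as well as CAGCTG, and the homeodomain sites TAATTA as well as TAATTG, which reads CAATTA on the other strand.
MYCT1, chr6:152681789-152681989: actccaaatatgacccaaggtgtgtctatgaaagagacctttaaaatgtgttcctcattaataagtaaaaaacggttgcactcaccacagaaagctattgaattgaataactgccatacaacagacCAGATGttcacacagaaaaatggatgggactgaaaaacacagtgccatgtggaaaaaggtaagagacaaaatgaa
BNC1, chr15:83283895-83284095: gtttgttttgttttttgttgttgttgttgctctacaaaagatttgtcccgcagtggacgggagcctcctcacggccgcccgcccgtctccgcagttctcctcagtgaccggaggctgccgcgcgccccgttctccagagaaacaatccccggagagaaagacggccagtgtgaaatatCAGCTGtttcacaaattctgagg
GPATCH2L, chr14:76090685-76090885: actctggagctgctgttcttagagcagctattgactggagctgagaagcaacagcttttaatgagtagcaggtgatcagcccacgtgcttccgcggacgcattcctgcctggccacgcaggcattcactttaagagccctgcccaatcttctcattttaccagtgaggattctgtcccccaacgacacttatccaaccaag
CLYBL, chr13:99857475-99857675: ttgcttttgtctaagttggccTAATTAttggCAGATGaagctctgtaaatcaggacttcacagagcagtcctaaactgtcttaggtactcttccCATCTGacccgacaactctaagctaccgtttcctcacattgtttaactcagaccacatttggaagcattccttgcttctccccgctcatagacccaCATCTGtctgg
RTRAF (intron of GNG2), chr14:51960757-51960957: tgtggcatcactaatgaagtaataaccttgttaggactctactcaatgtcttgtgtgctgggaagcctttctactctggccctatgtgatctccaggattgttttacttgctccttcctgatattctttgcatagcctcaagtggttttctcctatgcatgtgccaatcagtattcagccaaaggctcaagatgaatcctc
SCN8A, chr12:51631117-51631317: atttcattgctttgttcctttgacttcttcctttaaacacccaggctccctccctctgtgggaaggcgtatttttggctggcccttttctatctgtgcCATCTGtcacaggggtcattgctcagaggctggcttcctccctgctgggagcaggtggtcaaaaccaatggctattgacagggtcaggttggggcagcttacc
TWIST1, chr7:19111862-19112062: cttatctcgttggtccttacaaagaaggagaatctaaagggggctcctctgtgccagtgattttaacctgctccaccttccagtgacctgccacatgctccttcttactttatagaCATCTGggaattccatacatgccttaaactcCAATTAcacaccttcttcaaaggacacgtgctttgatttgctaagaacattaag
The first 4 lines are falling peaks and the last 3 are rising ones. The MYCT1 and BNC1 windows held 1 marked E-box each, and the CLYBL window held 3 marked E-boxes and 1 homeodomain site. In the CLYBL window the first E-box starts 4 bases after the homeodomain site, the arrangement called the composite motif. The windows of GPATCH2L and RTRAF held none of the marked sites. E-boxes of other letters are not marked. The GPATCH2L window held CACGTG and CAGGTG, the latter reading CACCTG on the other strand.

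Totals over the peaks ran from 7080398 to 9173063 counts per library, and the log2 of CPM (counts scaled to a common library size) of replicate pairs correlated across peaks at 0.888 to 0.921. The TWIST1 peak lists checked the degradation: the lists of TWIST1FV held 33479 and 25034 peaks before dTAGV-1 but 835 and 739 after 3 h. Those of WT held 59282 and 49107 peaks before and 55669 and 53044 after. The series has no TWIST1 library of either line at 24 h. A peak is called TWIST1-bound below where it overlapped 1 of the 42318 TWIST1 peaks that both 0 h replicates of WT share. Start-site peaks of 10 of 10 neural crest markers, among them TFAP2A, SOX9 and PAX3, had a median of 2 CPM or more, and their summed level was 884 to 1014 CPM in every TWIST1FV library. Of 13 glial and melanocyte markers 12 had a start-site peak and 6 reached 2 CPM, with a summed level of 72.3 and 91.6 CPM at 3 h and 100.8 and 107 CPM at 24 h. Markers of epithelium, 9 genes of which 2 reached 2 CPM, summed to 29.3 and 30.1 CPM at 3 h and 37.4 and 39.4 CPM at 24 h. Those of pluripotent cells, 5 of 7 with a start-site peak and 2 at 2 CPM or more, summed to 182 and 175 CPM at 3 h and 202 and 187 CPM at 24 h. Most of this was LIN28A, at 170 and 166 CPM at 3 h and 190 and 174 CPM at 24 h. ZFP42, PRDM14 and TDGF1 reached at most 1.21 CPM in TWIST1FV. Neuroepithelial markers summed to 31.7 and 27.6 CPM and then 33.7 and 32.6 CPM, and those of smooth muscle to 214 and 226 CPM and then 209 and 212 CPM. The sums of neuronal and endothelial markers overlapped between the times. EPCAM, a defining epithelial gene, went from 11.7 and 8.89 CPM to 14.6 and 13.0 CPM, and CDH1, another, stayed under 1 CPM. The defining glial gene SOX10 was at 2.05 and 1.94 CPM at 3 h and at 4.12 and 3.52 CPM at 24 h. No start-site peak of these marker lists was called, and the part of such cells in the late changes was not tested. In bulk libraries, fewer cells with a mark and less of the mark per cell cannot be told apart.

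Between 3 and 24 h, H3K27ac went down further at TWIST1-bound distal elements of TWIST1FV cells and went up at another set. TWIST1 had bound the rising set in WT about as often as all tested peaks (31.1% against 30.3%). The rising set was the smaller one in the main fit. With the 3 and 24 h libraries alone 149 peaks rose and 142 fell, and with halved counts 571 rose and 541 fell. The peaks that fell most lay near BNC1, which encodes a zinc-finger protein, and near MYCT1. Clusters of falling peaks lay around PAPPA, PID1, LMNTD1 and BNC2. Those that rose lay around DUSP6, CDK15, CRTAC1 and within TWIST1 itself. No peak passed the test in WT: edgeR called 0 of 120860 tested peaks (0.0%), with 3995 at an unadjusted p under 0.05, and DESeq2 called 0.

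In edgeR's quasi-likelihood fit, with FDRs after Benjamini and Hochberg, 1099 peaks of TWIST1FV were called, 67.5% of them lower at 24 h, and 13345 had an unadjusted p under 0.05. The median log2 change of all tested peaks was -0.02, and it was -0.13 when the scaling factors came from peaks without TWIST1, so that changes are relative to the other peaks. The count was 2480 without 3 h replicate 2, 1768 without 24 h replicate 1, 1677 without 0 h replicate 1 and 487 without 24 h replicate 2. The share of lower calls was 82.4% with factors from unbound peaks, 78.1% with no filter, 48.8% with the 3 and 24 h libraries alone and 48.7% with halved counts. With the 3 and 24 h libraries alone 291 peaks were called, 289 of them among the 1099. No called peak had the opposite sign in any of these fits. At each of the 742 falling and 357 rising peaks both 24 h libraries lay on the same side of both 3 h libraries, as they did at 39.4% of all tested peaks. The call itself favours this and the unchanged signs, so neither is further support.

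**Figure D1:**
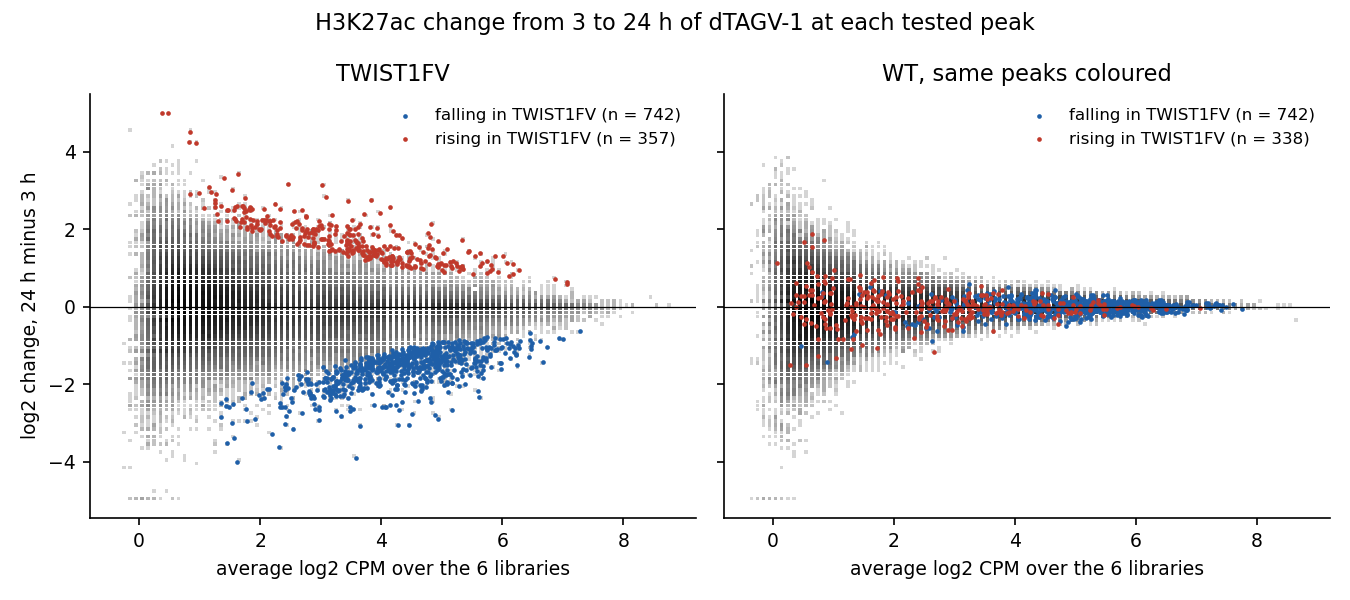
Log2 change in H3K27ac from 3 to 24 h (vertical axis) against the mean log2 CPM of a peak (horizontal axis), in TWIST1FV on the left and WT on the right. Grey shows all tested peaks, blue the 742 falling and red the 357 rising peaks of TWIST1FV. In WT, where 338 of the rising peaks were tested, the same peaks lie around 0. Changes beyond 5 are drawn at 5.

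Whether the change from 3 to 24 h differed between the lines was tested as an interaction in 1 fit of the 12 libraries. Of 148460 peaks, 635 (0.428%) changed downward in TWIST1FV relative to WT, and the rest of the 736 called peaks (0.068%) upward, by edgeR. Among the falling peaks, 552 of 742 (74.4%) also passed this test. Among the rising peaks, 79 of 357 (22.1%) passed it, and for the remaining ones a difference from WT is not shown. The late test and this one share the 3 and 24 h libraries of TWIST1FV, so these passes are not independent support. The change in WT was within 0.5 on the log2 scale at 728 of 742 falling peaks and at 278 of the 338 rising peaks tested there. The number of peaks passing fell to 450 without TWIST1FV 24 h replicate 2, and to 334 or 221 when 3 h replicate 1 or 2 of WT was left out and to 240 or 438 when its 24 h replicate 1 or 2 was.

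The falling peaks held much H3K27ac at 0 h and had lost most of it by 24 h, partly before and partly after 3 h. Their median level in TWIST1FV was 42.0 and 36.9 CPM at 0 h, 15.8 and 14.6 CPM at 3 h, and 5.58 and 4.87 CPM at 24 h. In WT the median stayed between 34.4 and 36.5 CPM in all 6 libraries. The median late log2 change was -1.54, with quartiles of -1.92 and -1.26, against -0.02 for all tested peaks. The change over the first 3 h had a median of -1.23 at the same peaks. Both intervals share the 3 h libraries, so these values are set side by side and their relation was not tested. The late change at the same peaks had a median of 0.00 in WT.

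TWIST1 peaks of WT at 0 h covered 729 of the 742 falling peaks, which is 98.2% (Wilson 95% interval 97.0 to 99.0, counting error only), against 30.3% of all tested peaks. By the TWIST1 lists of TWIST1FV at 0 h the share was 96.5%, against 18.2%. Of the falling peaks, 19 (2.56%) overlapped a TWIST1 peak left in either replicate of TWIST1FV at 3 h. Among all tested peaks, most of them unbound, 1117 did (0.905%). The share among bound peaks alone was not taken, so these values show no excess at falling peaks over other bound ones. Read the other way, 729 of 37359 bound peaks fell (1.95%) and 13 of 86002 unbound peaks fell. AP2a, another neural crest factor, had a peak at 22.1% of falling and 14.6% of all tested peaks. Falling peaks had a median level well above that of all tested peaks, where libraries had medians of 2.22 to 2.50 CPM, and a peak needs reads before a fall can be called.

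Most falling peaks were distal. Of the 742, 303 (40.8%) had their centre in an intron of a protein-coding gene, against 48.7% of all tested peaks, and 262 (35.3%) were intergenic, against 29.2%. Promoters, peaks whose edge lies within 500 bp of a protein-coding start site, were 37 (5.0%), against 15.1%. Distances given for single peaks run from the peak's centre. Their median distance to a protein-coding start was 53.5 kb, against 27.8 kb for all tested peaks. Joined within 50 kb, they formed 604 loci, 99 of which held several peaks and at most 6.

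**Figure D2:**
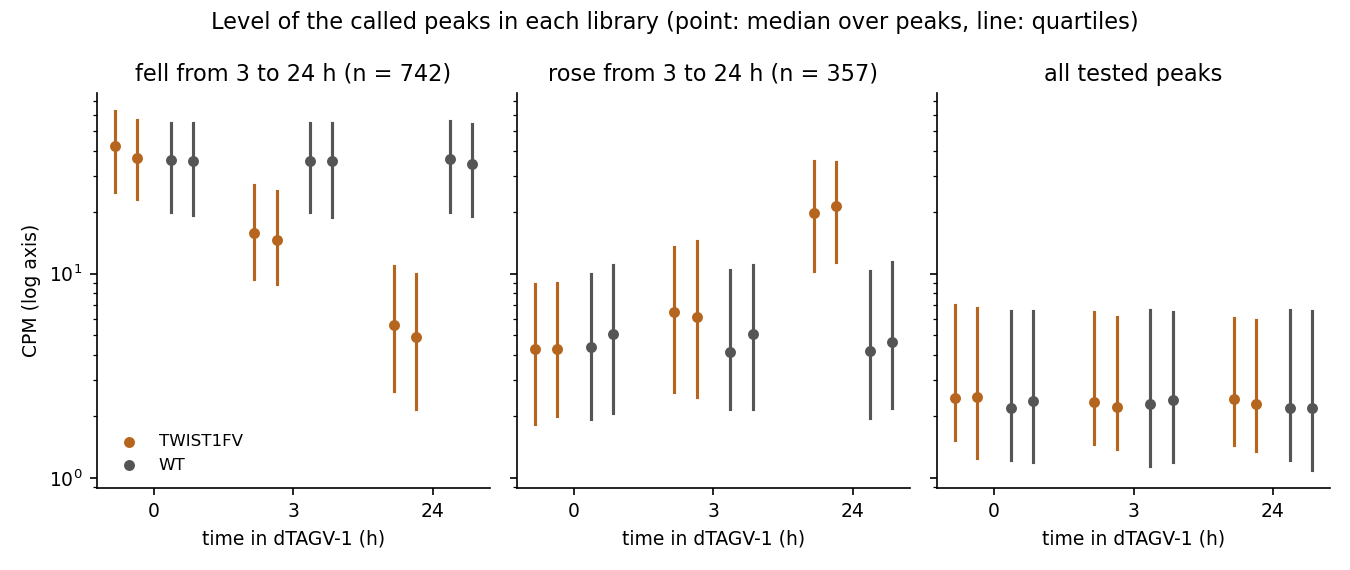
H3K27ac in CPM on a log axis (vertical) by time in dTAGV-1 in h (horizontal) at the falling, rising and all tested peaks, with 1 point per library for the median over peaks and a line for the quartiles, TWIST1FV in orange and WT in grey. TWIST1FV medians of falling peaks step down from 42.0 and 36.9 at 0 h to 5.58 and 4.87 CPM at 24 h, and those of rising peaks go from 4.29 and 4.25 to 19.9 and 21.4, while WT medians of falling peaks stay between 34.4 and 36.5 CPM.

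The share of all counts that lay in TWIST1-bound peaks needs no scaling between libraries. In TWIST1FV it was 58.1% and 55.6% at 0 h, 49.2% and 47.3% at 3 h and 46.2% and 44% at 24 h. Both 24 h libraries lay below both 3 h libraries. The mean difference from 3 to 24 h was -3.18 percentage points, with a two-sided exact permutation p of 0.33, the smallest that 2 against 2 allows. In WT the difference was -0.194 points (exact permutation p = 0.667).

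The largest fall on the log2 scale was at an intergenic peak 16 kb from MYCT1 (chr6:152681639-152682139), whose central sequence is printed above. It had 2.93 and 1.67 CPM at 3 h and 0.243 and 0 CPM at 24 h, which are 20 and 12 counts against 2 and 0. The ratio of 24 h to 3 h was 0.0560, with an exact 95% counting interval of 0.00651 to 0.220 (FDR 0.0259 by edgeR). Such intervals, here and at the next peaks, take counts as independent and are too narrow if both mates of a pair were counted. With halved counts the peak missed the threshold (FDR 0.0573). WT had 10.1 and 12.4 CPM at 3 h and 6.73 and 7.93 at 24 h, and the difference between lines missed the threshold (FDR 0.0644).

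BNC1 had 2 falling peaks at its promoter and 1 more distal one. At the peak 0.538 kb from the start (chr15:83283745-83284245) H3K27ac was 31.2 and 23.0 CPM at 0 h, 7.77 and 7.92 CPM at 3 h, and 0.485 and 0.541 CPM at 24 h. WT stayed between 9.29 and 12.7 CPM. The peak fell by 3.89 on the log2 scale from 3 to 24 h (SE 0.44, FDR 0.000781), and the difference from WT was -4.13 (FDR 4.52e-05). At the neighbouring peak (chr15:83282691-83283496) the levels were 27.7 and 29.7 CPM at 3 h and 5.22 and 3.79 CPM at 24 h, which fell by 2.66 (SE 0.23, FDR 0.000201). The distal peak, 38.9 kb away, fell by 1.97, and it missed the threshold without 24 h replicate 2 (FDR 0.0508) and with the 3 and 24 h libraries alone (FDR 0.0593).

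The other peaks with the largest falls were weaker. A peak 61.1 kb from GPATCH2L went from 7.04 and 2.78 CPM to 0.728 and 0 CPM (log2 change -3.63, SE 0.77, FDR 0.0351). An intronic peak of the non-coding gene GUCY1B2, 67.8 kb from C13orf42, went from 4.98 and 4.17 CPM to 0.243 and 0.541 CPM, and unlike the others it was not TWIST1-bound and stood lower at 0 h, at 2.76 and 2.25 CPM, than at 3 h. Near ASNS, which makes asparagine, a peak with 20 and 20 counts at 3 h had 2 and 2 at 24 h, a ratio of 0.0897 (exact counting interval 0.0233 to 0.248, FDR 0.0146). Near CITED1, a transcriptional co-regulator, the counts were 17 and 20 against 2 and 2, a ratio of 0.0969 (0.0251 to 0.270, FDR 0.0150). Without 24 h replicate 2, the peaks of MYCT1, GPATCH2L, ASNS and CITED1 missed the threshold (FDR 0.0824 to 0.161), as they did with the 3 and 24 h libraries alone (0.0718 to 0.151), and CITED1 also did so without 24 h replicate 1 (FDR 0.0517).

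PAPPA encodes a metalloprotease that cleaves binding proteins of insulin-like growth factors. In one of its introns 4 of its 8 tested peaks fell, side by side 96.4 to 98.4 kb from the start. At the peak chr9:116250784-116251284 the levels were 49.0 and 48.6 CPM at 0 h, 5.57 and 9.45 CPM at 3 h, and 1.21 and 0.541 CPM at 24 h, and WT libraries held 55.5 to 69.1 CPM. Its late change was -3.05 (SE 0.41, FDR 0.00254), and over the first 3 h it was -2.69. The late changes of the 4 peaks ran from -3.05 to -1.95. BDNF, a neurotrophin, fell at a peak in its UTR 0.767 kb from the start, from 12.2 and 10.6 CPM to 3.15 and 2.98 CPM (log2 change -1.88, SE 0.31, FDR 0.00712).

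PID1, an adaptor with a phosphotyrosine-interaction domain, had 5 of 19 peaks falling, 4 of them in a stretch of an intron 52.3 to 55.9 kb from the start. The peak chr2:229179569-229180069 had 13.6 and 12.8 CPM at 3 h and 2.18 and 1.62 CPM at 24 h, a fall of 2.78 (SE 0.29, FDR 0.000649). LMNTD1 had the most falling peaks of any gene, 6 of 29. At the LMNTD1 peak with the largest fall, 68.5 kb from the start, levels went from 99.7 and 69.8 CPM at 0 h to 17.0 and 12.5 CPM at 3 h and 3.88 and 2.44 CPM at 24 h (log2 change from 3 h of -2.21, SE 0.29, FDR 0.00253). WT libraries held 93.2 to 109 CPM there, and all 6 LMNTD1 peaks were TWIST1-bound.

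Falling peaks also clustered at BNC2, NKD2 and KALRN. BNC2, the paralog of BNC1, had 4 of 71 peaks falling, all in its introns, with late changes of -2.04 to -0.94. Its most changed peak (chr9:16611001-16611501) went from 11.4 and 12.8 CPM to 3.15 and 2.71 CPM (FDR 0.00543). NKD2 binds Dishevelled and restrains WNT signalling, and 4 of its 17 peaks fell, by 1.09 to 2.06 on the log2 scale. KALRN, a guanine nucleotide exchange factor, had 4 of 56 peaks falling, 3 of them within 2.3 kb of a start site. The peak 1.41 kb from that start had 56.0 and 68.5 CPM at 3 h and 22.9 and 31.5 CPM at 24 h (log2 change -1.19, FDR 0.00659). BNC1, PAPPA, PID1, LMNTD1, BNC2, NKD2 and KALRN together held 30 called peaks, all TWIST1-bound, and 15 of these missed the threshold without 24 h replicate 2 (FDR 0.0508 to 0.288), 4 without 24 h replicate 1 (0.0526 to 0.114) and 4 without 3 h replicate 1 (0.0519 to 0.164). A BNC2 peak was also lost without 0 h replicate 2. With the 3 and 24 h libraries alone 18 of the 30 missed the threshold (FDR 0.0581 to 0.144), and with halved counts 6 did (0.0510 to 0.0789).

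Promoters were few among the falling peaks, and the 6 with the largest falls were the pair at BNC1 and those of SLA, DENND3, BDNF and TIAM2. TIAM2, an exchange factor for the GTPase Rac, went from 13.8 and 15.0 CPM to 4.00 and 4.46 CPM (log2 change -1.76, SE 0.29, FDR 0.00833). SLA, a Src-like adaptor, went from 7.62 and 6.95 CPM to 1.94 and 1.35 CPM (-2.12, FDR 0.0303), and missed the threshold without 24 h replicate 2 (FDR 0.150). The DENND3 promoter was not TWIST1-bound and stood at 4.29 and 4.00 CPM at 0 h, 11.1 and 5.83 CPM at 3 h and 2.43 and 1.89 CPM at 24 h (-1.96, FDR 0.0404). WT showed 3.90 and 1.92 CPM at 3 h and 1.71 and 1.64 CPM at 24 h at DENND3, and the difference between lines had an FDR of 0.691. With the 3 and 24 h libraries alone the promoters of SLA, DENND3, BDNF and TIAM2 missed the threshold (FDR 0.0510 to 0.0896). DENND3 missed the threshold without 3 h replicate 1 (FDR 0.255) and without either 24 h library.

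**Figure D3:**
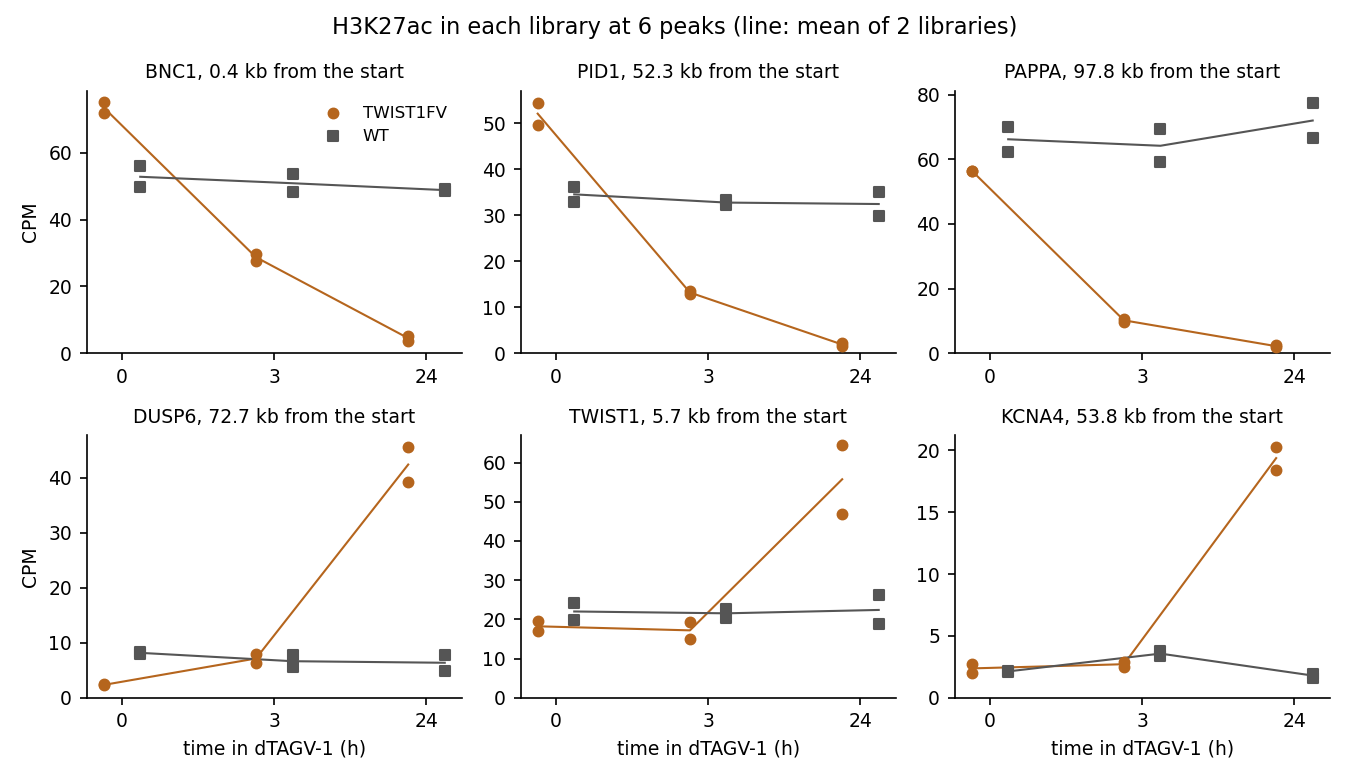
H3K27ac in CPM (vertical) by time in dTAGV-1 in h (horizontal) at 6 late peaks, with 1 point per library and lines through the means of 2 libraries, TWIST1FV in orange and WT in grey. At the PAPPA peak 97.8 kb from the start the TWIST1FV points go down to 1.94 and 2.44 CPM at 24 h, and at the DUSP6 peak they go up to 45.6 and 39.2 CPM, outside the WT points.

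The rising peaks started low and, by the rule that chose them, were higher at 24 h than at 3 h. Their median level in TWIST1FV was 4.29 and 4.25 CPM at 0 h, 6.45 and 6.11 CPM at 3 h, and 19.9 and 21.4 CPM at 24 h. In WT it ran from 4.13 to 5.06 CPM. The median late log2 change was 1.68, with quartiles of 1.31 and 2.07. The change over the first 3 h had a median of 0.48, with quartiles of -0.14 and 1.05. The late change chose these peaks and both intervals share the 3 h libraries, so the relation of these values was not tested. TWIST1 had bound 111 of the 357 in WT (31.1%, Wilson 95% interval 26.5 to 36.1), close to the 30.3% of all tested peaks, and the TWIST1FV lists at 0 h covered 14.6%, against 18.2%. AP2a had a peak at 9.0%, against 14.6%. Among unbound peaks 246 of 86002 rose (0.286%) and among bound peaks 111 of 37359 (0.297%).

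The rising peaks were also distal, and they were richer in A and T. Promoters made up 6 of the 357 (1.7%), and the median distance to a protein-coding start was 78.2 kb. The median GC content within 100 bp of the centre was 42.8% at rising, 45.8% at falling and 49.8% at all tested peaks. In unbound peaks the median late change moved with GC content, from 0.28 in the fifth of lowest GC to -0.07 in the fifth of highest GC, and in WT it went from -0.03 to 0.04. With a correction for GC content 304 peaks were called higher and 847 lower. The part of GC content in single peaks was not tested.

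Among peaks above the median level, the rises largest on the log2 scale were at elements with little H3K27ac before 24 h. In an intron of GNG2, 28.7 kb from RTRAF (chr14:51960607-51961107), TWIST1FV had 0.880 and 0.278 CPM at 3 h and 6.07 and 6.49 CPM at 24 h (log2 change 3.42, SE 0.58, FDR 0.00924). In an intron of the sodium channel gene SCN8A the levels were 1.47 and 1.39 CPM at 3 h and 13.6 and 12.3 CPM at 24 h (3.17, SE 0.53, FDR 0.00883), with at most 0.487 CPM in WT. In an intron of NRXN3, 390 kb from DIO2, they were 2.93 and 1.67 CPM and then 21.8 and 18.9 CPM (3.15, SE 0.41, FDR 0.00204). All 3 elements were unbound by TWIST1, and the 24 h libraries lay above every other library.

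Similar gains were seen 120 kb from ZPLD1, in RORA and near KCNA4. ZPLD1 had 0.586 and 0.556 CPM at 3 h and 4.12 and 7.58 CPM at 24 h, and missed the threshold without 24 h replicate 2 (FDR 0.138). RORA, a nuclear receptor gene, rose in an intron from 0.880 and 0.556 CPM to 5.34 and 6.49 CPM (log2 change 3.02, FDR 0.00960). KCNA4, a potassium channel gene, had a pair of neighbouring rising peaks 53.1 and 53.8 kb away. The one at chr11:29963002-29963502 went from 2.93 and 2.50 CPM to 18.4 and 20.3 CPM, a rise of 2.83 (SE 0.35, FDR 0.00172). It is the only one of these 6 that also differed from WT (3.79, FDR 0.000213), where the level was 3.79 and 3.36 CPM at 3 h and 1.96 and 1.64 CPM at 24 h.

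DUSP6, the phosphatase that dampens ERK signalling downstream of fibroblast growth factors, had 3 of 25 peaks rising and none falling. A neighbouring pair lay 72.2 and 72.7 kb from its start in an intron of a non-coding gene. At chr12:89278174-89278674 TWIST1FV had 2.45 and 2.25 CPM at 0 h, 7.92 and 6.39 CPM at 3 h and 45.6 and 39.2 CPM at 24 h, while WT had 4.92 to 8.33 CPM. It rose by 2.57 from 3 to 24 h (SE 0.26, FDR 0.000506), and the difference from WT was 2.60 (FDR 0.000566). The DUSP6 peak 34.3 kb away stood at 12 and 12.5 CPM at 3 h and at 30.9 and 25.6 CPM at 24 h, and missed the threshold without 3 h replicate 1 (FDR 0.0778) or 24 h replicate 1 (FDR 0.101).

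CDK15 and CRTAC1 had 3 rising peaks each. In the CDK15 locus, a cyclin-dependent kinase gene, the peak chr2:201888462-201888962 had 13.2 and 10.2 CPM at 0 h, 23.5 and 23.1 CPM at 3 h and 62.1 and 60.3 CPM at 24 h (log2 change from 3 h of 1.40, SE 0.20, FDR 0.00416). CRTAC1 encodes a secreted matrix protein, and its peak at chr10:98046858-98047358 had 0.612 and 0.750 CPM at 0 h, 7.04 and 5.56 CPM at 3 h and 25.2 and 25.6 CPM at 24 h (2.01, SE 0.30, FDR 0.00425). At 3 and 24 h the TWIST1FV libraries of both peaks lay above all their WT libraries, which reached 16.7 CPM at CDK15 and 3.36 CPM at CRTAC1.

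Other genes with several rising peaks were HDDC2, ADAMTSL1 and SCYL3. At the HDDC2 peak 55.0 kb from the start, levels went from 12.9 and 17.2 CPM to 74.7 and 58.6 CPM (log2 change 2.14, SE 0.27, FDR 0.00178). Over the first 3 h the rising peaks of HDDC2 had already changed by 2.07 to 3.08 on the log2 scale. Those of CRTAC1 had changed by 2.87 to 6.99. ADAMTSL1, a secreted protein related to ADAMTS proteases, rose at an intronic, TWIST1-bound peak (chr9:17949143-17950216) from 40.2 and 32.4 CPM to 95.7 and 92.7 CPM (1.38, SE 0.18, FDR 0.00252). There the 0 h level in TWIST1FV was 16.7 and 19.5 CPM, below the 39.0 to 47.7 CPM of WT. The SCYL3 peaks lay in introns of KIFAP3. Of the 21 rising peaks of the genes named for clusters, TWIST1 included, 6 missed the threshold without 24 h replicate 2 (FDR 0.0577 to 0.455), 6 without 3 h replicate 1 (0.0778 to 0.215), 2 without 24 h replicate 1 (0.0791 and 0.101) and 1 without 3 h replicate 2 (0.0600). With the 3 and 24 h libraries alone 6 of the 21 missed it (FDR 0.0514 to 0.0939).

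Rising promoters were those of ANK2, CNKSR3, SFTA2, UNC5C, PATJ and AAAS, all 6 that were called. ANK2, which encodes the membrane adaptor ankyrin-B, went from 4.98 and 5.83 CPM to 27.4 and 18.8 CPM (log2 change 2.09, SE 0.37, FDR 0.0120). PATJ, a polarity protein, went from 8.80 and 9.72 CPM to 23.5 and 25 CPM (1.39, FDR 0.0226). AAAS, a nucleoporin gene, was the strongest, at 133 and 125 CPM at 3 h and 201.4 and 186 CPM at 24 h, but changed least (0.59, SE 0.13, FDR 0.0487). None of the 6 differed from WT past the threshold (FDR 0.139 to 0.492). Without 24 h replicate 2, 4 of the 6 missed the threshold (FDR 0.117 to 0.312), and 4 did without 3 h replicate 1 (0.0686 to 0.106), 2 without 3 h replicate 2 (0.0918 and 0.154) and 1 without 24 h replicate 1 (0.153). AAAS missed the threshold in each of the 6 fits without a library, and ANK2 in none. With the 3 and 24 h libraries alone CNKSR3, UNC5C and AAAS missed it (FDR 0.0581 to 0.0852).

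The TWIST1 locus gained H3K27ac downstream of the start site, while the start-site peak did not pass the test. At the start-site peak (chr7:19117409-19117909) TWIST1FV had 20.4 and 21.1 CPM at 3 h and 21.5 and 26.0 CPM at 24 h, a change of 0.19 (SE 0.23, FDR 0.866). At the peak 5.67 kb downstream, whose central sequence is the last one printed above, the levels were 17.0 and 19.5 CPM at 0 h, 15.1 and 19.3 CPM at 3 h, and 46.9 and 64.5 CPM at 24 h. It rose by 1.69 (SE 0.23, FDR 0.00279), and by 1.62 relative to WT (FDR 0.00561), where the level was 18.7 to 26.1 CPM. The adjoining peak 5.15 kb downstream had 22.7 and 33.5 CPM at 3 h and 61.9 and 88.1 CPM at 24 h (1.41, SE 0.23, FDR 0.00704). A peak 10.9 kb downstream, which TWIST1 had bound in WT, went from 37.8 and 54.2 CPM to 70.8 and 109 CPM (0.97, FDR 0.0454), and missed the threshold without 24 h replicate 2 (FDR 0.455) or 3 h replicate 1 (FDR 0.168) and with the 3 and 24 h libraries alone (FDR 0.0939). Within 600 kb of the start, 85 peaks were tested, 7 rose and none fell, and the median change was 0.56. Among all tested peaks 0.289% rose, 0.601% fell and the median was -0.02. Of the 7, 2 also differed from WT, those 5.67 and 5.15 kb downstream. Apart from the peaks given above, the rising ones lay in introns of HDAC9, 165 to 437 kb from the TWIST1 start. The HDAC9 peaks at 428 and 429 kb had also risen over the first 3 h (log2 change 1.41 and 1.02, edgeR FDR 0.00238 and 0.0126).

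**Figure D4:**
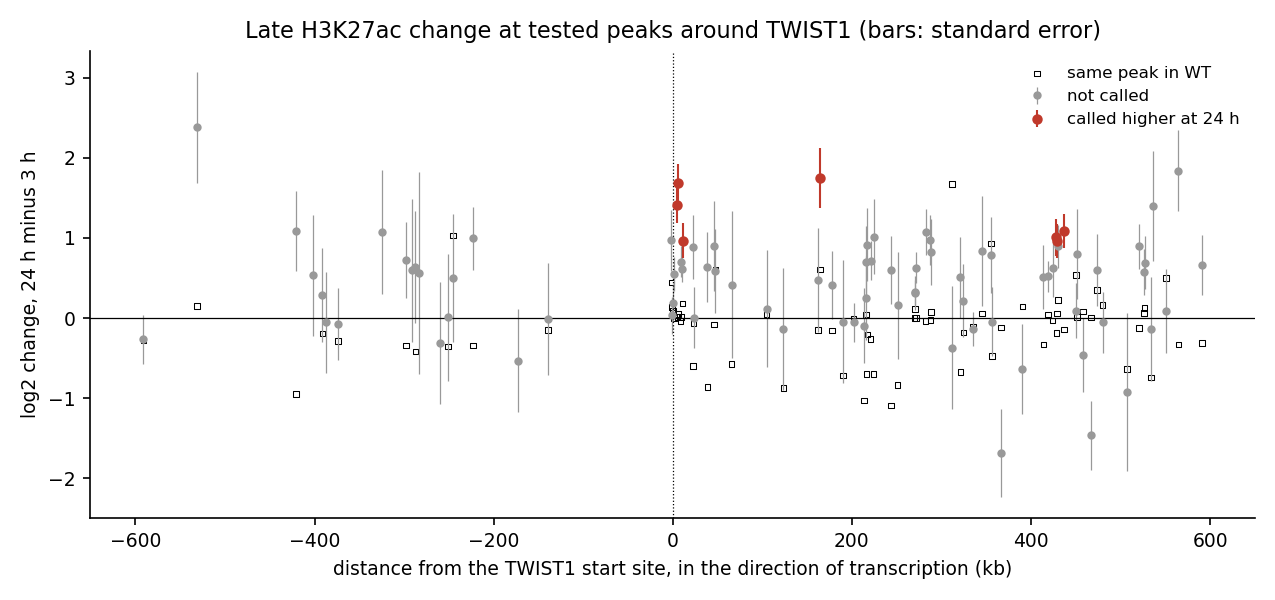
Late log2 change in H3K27ac at the 85 tested peaks within 600 kb of the TWIST1 start site (vertical axis) against the distance from that start in kb (horizontal axis), with bars of 1 SE, the 7 rising peaks in red and the same peaks in WT as open squares. The start-site peak lies at 0.19 and the rising peak 5.67 kb downstream at 1.69.

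Genes of neural crest and craniofacial pathways were counted in 24 lists, assigning to each gene the peaks nearest to its start within 100 kb. Of 4742 such peaks 29 fell (0.61%) and 14 rose (0.30%), with a median change of -0.04. For all 92536 tested peaks within that distance of a gene the values were 493 (0.53%), 195 (0.21%) and -0.04. A share near the background is no result about these genes as a group, and the lists are described by their members. Of the 27 falling list peaks named below or under the promoters, 23 missed the threshold with the 3 and 24 h libraries alone (FDR 0.0574 to 0.166), all but those of ETS1, EPHA3 and IL11RA and 1 at TNFRSF11B, and 6 missed it with halved counts (0.0512 to 0.0743). Of the 14 rising ones 6 missed it with the 3 and 24 h libraries alone (0.0574 to 0.0939).

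Collagens and other matrix genes had 5 of 336 peaks falling and none rising, with a median of -0.15. COL12A1, a collagen of dense connective tissue, had 2, and the one 66.4 kb away went from 6.16 and 7.78 CPM to 1.46 and 1.62 CPM (log2 change -2.17, SE 0.39, FDR 0.0135). COL6A3, a microfibrillar collagen, went from 17.9 and 13.9 CPM to 5.34 and 4.87 CPM (-1.63, SE 0.28, FDR 0.00982). The others were near FBLN1 and, named here after its value was seen, COL5A1. Of the 4 peaks of COL12A1, COL6A3 and FBLN1, 2 missed the threshold without 24 h replicate 2 (FDR 0.0570 and 0.0627) and 1 without 3 h replicate 1 (0.0516).

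The WNT list had 5 of 465 peaks falling and none rising, with a median of -0.09. They comprised 2 at RSPO1, which amplifies WNT signals, and 1 each at DKK2 and AXIN2, which restrain them, and at TCF7L2, a nuclear effector named here after its value was seen. DKK2 had 8.80 and 8.34 CPM at 3 h and 2.18 and 2.16 CPM at 24 h (log2 change -1.97, SE 0.30, FDR 0.00509). AXIN2 had 28.7 and 25.6 CPM at 3 h and 12.4 and 11.8 CPM at 24 h (-1.17, SE 0.21, FDR 0.0138). Without 24 h replicate 2 the AXIN2 peak and an RSPO1 peak missed the threshold (FDR 0.0912 and 0.199), without 24 h replicate 1 both RSPO1 peaks did (0.0595 and 0.0854), and without 3 h replicate 1 or 0 h replicate 2 an RSPO1 peak did (0.211 for the former).

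Of other signalling genes, TGFBR2, a receptor for transforming growth factor beta, had 2 falling peaks in an intron, the only calls among 324 peaks of the BMP and TGF-beta list. One went from 8.36 and 10.3 CPM to 2.18 and 2.71 CPM (log2 change -1.93, SE 0.33, FDR 0.00982). The list of FGF, PDGF and hedgehog signalling had 2 of 457 falling, at the hedgehog co-receptors BOC and GAS1, and 3 rising, all at DUSP6. The list of Notch, retinoic acid and endothelin genes had 2 of 271 falling, at RARG, a retinoic acid receptor, and DHRS3, which reduces retinal. RARG went from 27 and 27.5 CPM to 12.5 and 11.9 CPM (-1.16, SE 0.21, FDR 0.0134). Without 24 h replicate 2 the peaks of BOC, GAS1, RARG and DHRS3 and one TGFBR2 peak missed the threshold (FDR 0.0922 to 0.271), as GAS1 and DHRS3 did without 3 h replicate 1 (0.0524 and 0.113).

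Of 354 peaks of neural crest specifier genes 3 fell and 2 rose. Of 224 peaks of homeodomain and bHLH factors 1 fell, an MSX1 peak counted in both lists, and 4 rose, of which 3 lie at TWIST1. Of 310 peaks of forkhead and T-box factors 3 fell and none rose. ETS1 had 1 falling peak in an intron, from 25.8 and 24.7 CPM to 9.46 and 8.39 CPM (log2 change -1.5, SE 0.22, FDR 0.00416). It also had 1 rising peak, from 11.7 and 9.03 CPM to 36.0 and 23.5 CPM (1.52, SE 0.30, FDR 0.0239), and both differed from WT (FDR 0.000792 and 0.0159). An intronic peak of PAX3 rose from 8.80 and 9.17 CPM to 19.2 and 31.0 CPM (1.48, FDR 0.0231). The start-site peak of PAX3 was not called and did not rise (29.8 and 28.9 CPM, then 20.1 and 24.1 CPM). A peak in an intron of METAP1D near DLX1 rose from 4.55 and 7.22 CPM to 16.7 and 19.2 CPM (1.60, FDR 0.0349). Distal peaks fell at MSX1 (-1.90), NR2F1 (-0.91), FOXP1 (-1.48), FOXD1 (-2.37) and TBX2 (-1.57). Of these peaks, all but the ETS1 pair missed the threshold without 24 h replicate 2 (FDR 0.122 to 0.339), and the rising ETS1 peak did without 24 h replicate 1 (0.0683). NR2F1 did so too without 24 h replicate 1 (0.121), without 3 h replicate 2 (0.0770) and without 0 h replicate 2, and DLX1 (0.164) and TBX2 (0.140) without 3 h replicate 1.

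Axon guidance and contact genes had 2 of 520 peaks falling and 3 rising. Falling peaks lay at EPHA3, an ephrin receptor, and PLXNA2, a semaphorin receptor. Rising peaks lay at EFNA5, an ephrin, and at 2 sites of UNC5C, a netrin receptor. The UNC5C peak 91.2 kb from the start went from 8.21 and 14.3 CPM to 35.7 and 45.3 CPM (log2 change 1.84, SE 0.28, FDR 0.00456). EPHA3 went from 13.3 and 12.4 CPM to 3.64 and 2.16 CPM (-2.13, FDR 0.0116), and missed the threshold without 24 h replicate 2 (FDR 0.0579). PLXNA2 did so without 24 h replicate 2 (0.254) or 3 h replicate 1 (0.185), EFNA5 without 3 h replicate 1 or 24 h replicate 1 (0.0839), and the UNC5C promoter without 24 h replicate 2 (0.299) or 3 h replicate 1.

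Of the cartilage and bone list 2 of 207 peaks fell, both at TNFRSF11B, which encodes osteoprotegerin, a decoy receptor that restrains osteoclasts, and 1 rose, at SOX5, a chondrocyte factor. One TNFRSF11B peak went from 16.4 and 15.6 CPM to 4.37 and 3.25 CPM (log2 change -2.06, SE 0.27, FDR 0.00199), with 45.8 to 56.8 CPM in WT. A peak 28.6 kb from CCL2, a chemokine, was the only call of the stress and inflammation list, from 41.9 and 44.7 CPM to 20.9 and 20.6 CPM (-1.06, SE 0.16, FDR 0.00445). In the craniosynostosis list 3 of 243 peaks rose, all at TWIST1, and 1 fell, near IL11RA, a receptor for interleukin 11, from 31.1 and 37.2 CPM to 13.5 and 14.5 CPM (-1.29, SE 0.22, FDR 0.00850). Single calls were made at CDH7 (rising) in the list of adhesion and epithelial-mesenchymal transition genes and at ERG (falling) in the endothelial list. Without 24 h replicate 2 the SOX5, CDH7 and ERG peaks missed the threshold (FDR 0.0591, 0.111 and 0.117), and CDH7 did so without any 1 of the 3 and 24 h libraries.

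By edgeR 0 of 956 peaks were called in 10 lists, against 0.891% of all tested peaks, with 114 at an unadjusted p under 0.05 (11.9%, against 10.8% of all tested) and 3 called by DESeq2. These lists were put together because they held no call: E-proteins and ID factors, smooth muscle, neuronal, glial and melanocyte, neuroepithelial, pluripotent, epithelial, AP-1 and Hippo targets, p53, and cell cycle genes. The glial and melanocyte list had the highest median of these, 0.55 over 80 peaks, against 0.02 in WT. Its summed start-site level is given above, and the relation of that level to the late peaks was not tested.

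Sequence content differed between the falling and rising peaks. The E-box CAGATG occurred within 100 bp of the centre in 29.9% of falling, 14.6% of rising and 22.6% of all tested peaks. The E-box CATATG occurred in 8.63%, 3.36% and 4.44%. By contrast CAGCTG stood at 19.7%, 10.6% and 20.3%, and CACCTG at 14.2%, 6.16% and 14.2%. The homeodomain sites TAATTA or TAATTG were in 17.8% of falling, 27.7% of rising and 12.6% of all tested peaks. The SOX site ACAATG was in 7.28%, 16.5% and 9.83%, the nuclear receptor half-site AGGTCA in 13.9%, 22.1% and 19.3%, and the TFAP2 site GCCNNNGGC in 7.01%, 10.6% and 13.7%. These searches covered both strands, and a match is a description of letters, not of binding. GC content differs between the groups as given above, and its part in these shares was not tested.

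The forkhead motif TGTTTAC was in 4.72% of falling, 3.64% of rising and 2.83% of all tested peaks, and the EBF motif CCCNNGGG in 7.41%, 10.9% and 12.4%. In tested peaks without promoters forkhead was in 3.08% and EBF in 11.2%, near the rising shares. Closer to the share of all tested peaks, RUNX (TGTGGT) was in 14.6% of falling, 13.2% of rising and 12.3% of all tested peaks, TEAD (GGAATG) in 13.5%, 13.7% and 14.7%, and AP-1 (TGANTCA) in 6.87%, 5.04% and 7.26%. The composite motif, a homeodomain site and an E-box 4 bases apart, was in 1 of 742 falling peaks, 0 of 357 rising peaks and 299 of 123361 tested peaks (0.242%). The falling one is the CLYBL peak printed above, in an intron 1.29 kb from the start. It went from 20.5 and 11.1 CPM to 5.34 and 6.22 CPM (log2 change -1.45, SE 0.33, FDR 0.0471). The call was lost in 8 of 16 alternatives, among them halved counts, no filter and the 3 and 24 h libraries alone (FDR 0.120 in the last). It was also lost without 3 h replicate 1 and without either 24 h replicate. Over the alternatives the change ran from -1.84 to -0.97. WT had 22.5 and 19.9 CPM at 3 h and 25.2 and 32.0 CPM at 24 h there.

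**Figure D5:**
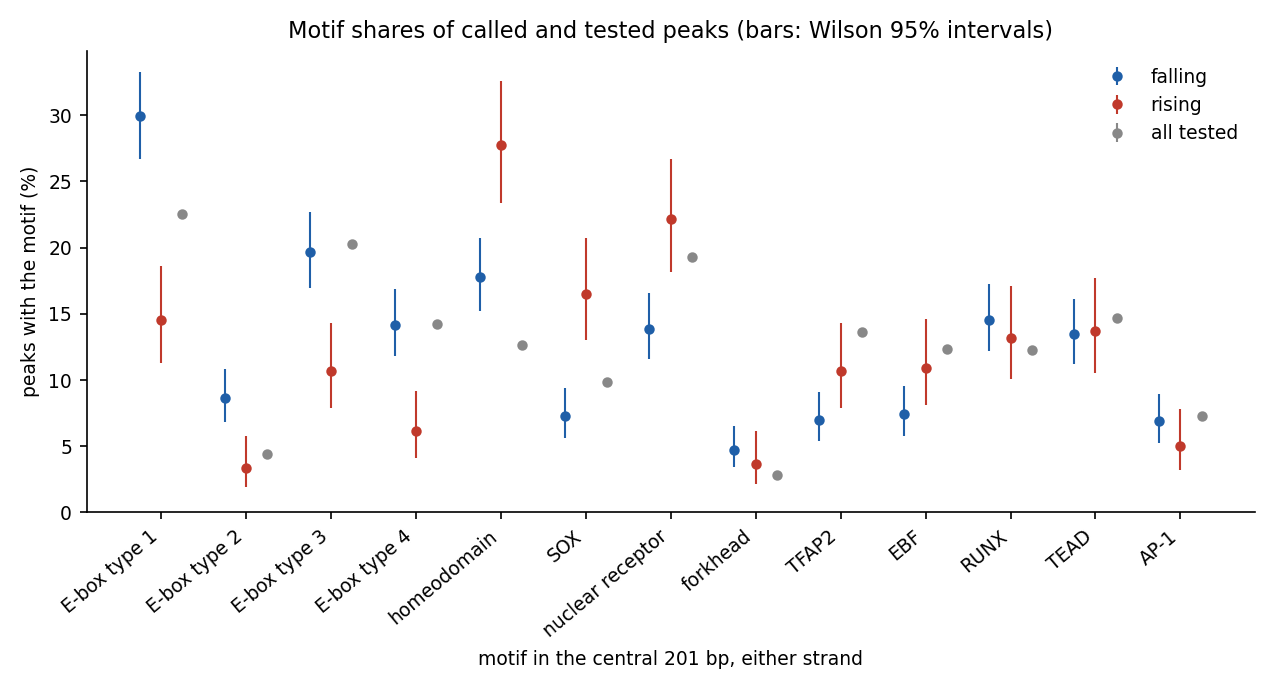
Share of falling, rising and all tested peaks that hold each motif within 100 bp of the centre, in percent, with Wilson 95% intervals that cover counting error only. E-box type 1 is CAGATG or CATCTG, type 2 CATATG, type 3 CAGCTG and type 4 CACCTG. The homeodomain site is at 27.7% of rising and 17.8% of falling peaks, and E-box type 1 at 14.6% and 29.9%.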

How the data were processed

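The authors deposited H3K27ac counts as 1 table per line, whole numbers over merged ATAC-seq peaks that were not normalized. Per the labels, reads were aligned to hg38 and mm39 combined and files are in hg38, with mouse O9-1 cells as the spike-in. Its reads did not enter, the scaling comes from the counted peaks, and a change common to all peaks could not be measured. Per the submitters' processing notes the tools included Bowtie2 2.4.1, SAMtools 1.10, MACS2 2.2.7.1 and deepTools 3.5.0, with no role or setting stated. The deposited TWIST1 and AP2a peak lists, 1 per library, give a −log10 q per peak, used only as a filter in an alternative. In each library 76.7% to 80.6% of counts of 20 or more were even, so both mates of a pair may have been counted, and halved counts were an alternative. Every column of per-sample values in the tables was assigned to a sample (0 unused).

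Each line was fitted with its 6 libraries by edgeR 4.0.16 (R 4.3.3) with TMM factors, filterByExpr and the quasi-likelihood test, without a replicate block, and p-values were adjusted by Benjamini-Hochberg over all tested peaks at an FDR of 0.05. The difference between lines was the interaction in 1 fit of 12 libraries. CPM are per effective library size. Standard errors come from the F statistic. DESeq2 1.42.0 was an alternative, and other alternatives changed the scaling, the filter, the GC content, the libraries and the TWIST1 overlap (main: 1 bp). Genes are the nearest protein-coding start sites of GENCODE 44, and intervals used scipy 1.17.1. In data simulated for the late response of TWIST1FV (111122 peaks tested), the changes were set in peaks with a mean above 20 counts. Of 100 such peaks changed 4-fold 74% were recovered, and of 100 changed 2-fold 11%. There were 11 false calls among 96 in all, a larger share than the FDR threshold of 0.05, in this 1 simulation. So most changes of the smaller size would be missed at this depth with 2 libraries per time, and the share of false calls may exceed the threshold.

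Named peaks are, per direction, the 6 called peaks with the largest change above the median level whose 24 h libraries both lie beyond both 3 h libraries, those of the 8 genes with the most called peaks in that direction minus the other (start site within 100 kb), the 6 promoter peaks (edge within 500 bp of a start site) under the same conditions, the 3 largest called differences from WT above the median level, up to 3 genes per list, and the TWIST1 start site. Some items that these rules select are not reported here. Members, lists and these rules were chosen with earlier results of these data known.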

Additional observations from a re-analysis of the deposited data

Results flagged for a closer look

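The late change differed between TWIST1FV and WT at 736 peaks by the interaction test of edgeR. Among those above the median level, the late difference of TWIST1FV minus WT was most negative at the BNC1 peak 0.538 kb from its start (-4.13), the CITED1 peak 7.85 kb away (-3.89) and the C13orf42 peak 67.8 kb away (-3.80). It was most positive at peaks 147 kb from GPC6 (4.03), 53.8 kb from KCNA4 (3.79) and 104 kb from ADGRF1 (3.71). At the GPC6 peak TWIST1FV went from 1.76 and 0.834 CPM at 3 h to 6.79 and 8.25 CPM at 24 h, and WT from 1.38 and 1.68 CPM to 0.245 and 0.820 CPM. The ADGRF1 peak was not called in TWIST1FV alone (edgeR FDR 0.0882), and WT went from 0.918 and 1.92 CPM to 0.490 and 0.273 CPM there.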

How the results depend on the processing

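The late response of TWIST1FV counted 1099 called peaks. It counted 1705 by DESeq2, 1513 with factors from peaks without TWIST1, 4677 with the replicate block, 291 with the 3 and 24 h libraries alone, and 487 to 2480 without 1 library. WT counted 0, with 1 under the replicate block and 0 to 1 without 1 library. The difference between lines counted 736, with 1131 by DESeq2, 463 with halved counts, 2732 with the replicate block, 407 with the 3 and 24 h libraries alone and 221 to 1055 without 1 library. The GC correction and the factors from unbound peaks were chosen after seeing the data. Whether same-numbered libraries form pairs is not known. Across peaks, the differences between replicates 1 and 2 at 3 h and at 24 h correlated at 0.14 in TWIST1FV and 0.04 in WT. The replicate block kept all 1099 calls. In TWIST1FV replicate 1 had the larger share of counts in bound peaks at each time. An effect of replicate number was not tested. The difference from 3 to 24 h in the share of counts in bound peaks ran from -4.30 to -2.06 points in TWIST1FV without 1 library, and from -0.319 to -0.0702 in WT. The bound share of falling peaks was 99.1% with TWIST1 peaks of either WT replicate and 96.5% with the TWIST1FV list. For rising peaks it was 38.7% and 14.6%, and 25.2% at a −log10 q of 5 or more. For all tested peaks it was 40.6%, 18.2% and 26.6%, and 29.7% with an overlap of 100 bp. Within 50 and 250 bp of the centre, homeodomain sites were in 10.9% and 50.1% of rising, 9.97% and 34.9% of falling and 7.04% and 28.9% of all tested peaks. The E-box CAGATG was in 16.4% and 58.0% of falling, 8.12% and 29.4% of rising and 13.4% and 39.6% of all tested peaks. The falling peaks of list genes numbered 18 within 50 kb and 19 with the nearest gene of any kind, and the rising ones 4 with the latter. The late change of named peaks stayed on its side of the threshold in 1581 combinations of peak and setting, missed it in 215 and newly passed it in 2. No called peak changed sign, which the call itself favours. The cause of these shifts was not tested. Calls rest on 2 libraries per time, which limits their precision.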
